A study of Arabidopsis thaliana with 8 samples.

Results

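The probe sets examined here belong to the mitochondrial genome of Arabidopsis thaliana and to the stretch of nuclear chromosome 2 that carries a copy of it. Members were all probe sets assigned to a single gene that is mitochondrially encoded, or to a single locus numbered from AT2G07667 to AT2G07777. The rule found 57 of 22746 non-control probe sets, 23 for 16 mitochondrial genes and 34 for 34 loci of the chromosome 2 copy. RNA came from whole plants at developmental stage 3.90, from 4 arrays of Cal-0, stock N1063 and labelled calcicole, which means adapted to lime, and 4 of Col-4, stock N933 and labelled non-calcicole. All plants were raised on sand at 23 degrees Celsius in a growth room, with 1 mM calcium chloride and Long Ashton nutrients at 0.5 strength. All also shared stratification for 48 h at 4 degrees Celsius, a light value of 160 and a humidity value of 34, so that accession is the factor the labels set apart.

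Plant mitochondria keep a small set of genes for subunits of the respiratory chain, for the attachment of heme to c-type cytochromes and for their own ribosomes, while most mitochondrial proteins are encoded in the nucleus. Their transcripts are spliced and edited inside the organelle, and nad1 is joined from separately transcribed pieces. A poly(A) tail marks plant mitochondrial RNA for degradation rather than for translation. In the Columbia reference, a nearly complete copy of the mitochondrial genome lies near the centromere of chromosome 2, so transcripts of the organelle and of its nuclear copy can be almost identical in sequence.

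That likeness bears on every value below. An s suffix marks a probe set whose probes match more than 1 transcript, and 24 of the 57 members carried it, 19 of them for copy loci, where 4.67% of all probe sets had an s or x suffix. In those members, RNA from the organelle and from the nuclear copy cannot be told apart. Whether the probes of members without the suffix bind only 1 of these sources was not tested. The annotation used gives no gene name or function to the copy loci, so they are named by locus only and were not paired with mitochondrial genes. Of the 32 named protein-coding genes on the annotated mitochondrial chromosome, 16 had a member probe set. None of the 23 mitochondrial probe sets is named for complex III, the ATP synthase or the mitochondrial ribosome.

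Most members gave little signal. Of the 57, 25 had a mean signal of at least 25 MAS5 units over the 8 arrays and were tested, 12 for the mitochondrial genome and 13 for the copy, while 32 (56.1%) lay under that filter, against 33.3% of all probe sets. Members without the suffix were under the filter in 22 of 33 cases, and members with it in 10 of 24. The 11 untested mitochondrial probe sets had means of 2.31, for the maturase gene matR, to 24.8, for 1 of the 7 nad1 probe sets. The 21 untested copy loci had means of 0.713 (AT2G07732) to 23.6 (AT2G07720), and 12 of them were under 10. On either side of the filter stood AT2G07674 at 27.1 and that nad1 probe set at 24.8. In a fit of Cal-0 against Col-4 without the filter, limma called none of the 32, beside 2.47% of all 22746 probe sets. In that accession fit, 2 of the 32 had an unadjusted p under 0.05. No detection calls were used, so a low signal is given as a low signal and not as absence of RNA.

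Array medians ran from 44.0 to 50.1 signal units. Genes of leaves and roots were both present, the lowest signal of any array being 618 for the light-harvesting genes LHCB4.1 to LHCB4.3 and 329 for the root gene PYK10. The titles number the arrays 1 to 8 without saying what the number stands for. Arrays 1 to 4 and arrays 5 to 8 each held 2 arrays of each accession. RNA quality was read from GAPDH and actin control probe sets, whose signal at the 3′ end exceeded that at the 5′ end by 1.66 to 2.39 log2 units on arrays 5 to 8 and 0.927 to 1.70 on arrays 1 to 4. On arrays 1 to 4 this excess also differed by accession, at 1.70 and 1.52 in Cal-0 against 0.955 and 0.927 in Col-4. On arrays 5 to 8 it was 1.885 and 1.965 in Cal-0 and 1.66 and 2.39 in Col-4. The accession comparison is therefore not free of differences in RNA quality. Because these are whole plants, fewer cells rich in mitochondria and less mitochondrial RNA per cell cannot be told apart.

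The comparison of Cal-0 with Col-4 asks whether these transcripts differ between a lime-adapted accession and one that is not. A single copy locus, AT2G07718, passed the test, and it was lower in Cal-0. Among the tested mitochondrial probe sets, cox1 and nad9 had the largest differences, both toward higher signal in Cal-0, without passing; they did pass in fits with the replicate number or the array set as a block. limma called 1 of 25 members (0 of 12 mitochondrial, 1 of 13 copy loci) at a Benjamini-Hochberg adjusted p under 0.05, beside 4.29% of all 15165 tested probe sets, a share near that of the members. Unadjusted, 3 of the 25 and 2355 of the 15165 had p under 0.05. Lower calls made up 2.75% of all tested probe sets. The median difference was 0.11 for mitochondrial probe sets and 0.05 for copy loci on the log2(signal + 16) scale, against 0.03 over all tested probe sets.

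**Figure D1:**
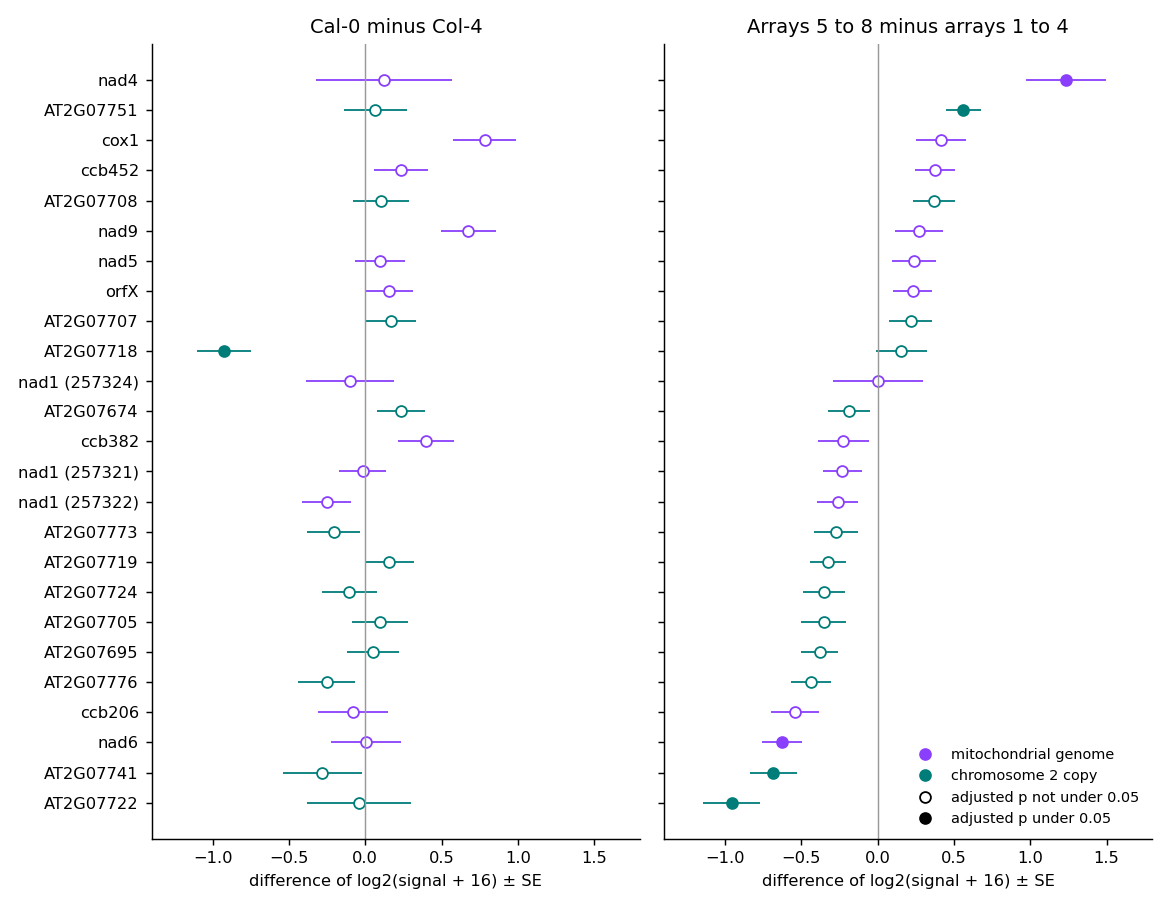
Differences of log2(signal + 16) with standard errors for the 25 tested members, Cal-0 minus Col-4 on the left and arrays 5 to 8 minus arrays 1 to 4, adjusted for accession, on the right. Filled points have a limma adjusted p under 0.05, which AT2G07718 reached on the left and nad4, AT2G07751, nad6, AT2G07741 and AT2G07722 on the right; the 3 nad1 probe sets carry the number of the probe set.

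AT2G07718 had signals of 25.6, 30.1, 23.6 and 26.1 in Cal-0 replicates 1 to 4, against 72.2, 39.3, 78.7 and 74.8 in the Col-4 replicates. All 4 Cal-0 arrays were below all 4 Col-4 arrays, and the Cal-0 values lay close together. Its mean was 26.4 ± 2.72 over the Cal-0 arrays and 66.3 ± 18.2 over the Col-4 arrays (SD, n = 4). The log2 difference was -0.93 (SE 0.18, limma adjusted p = 0.0116), and it was -0.59 with a pseudocount of 50, since the Cal-0 signals were low. The call held in each of the 8 fits that left out 1 array, at limma adjusted p of 0.00152 to 0.0411. It was -1.18 within arrays 5 to 8 (limma adjusted p = 0.0266) and -0.67 within arrays 1 to 4 (limma adjusted p = 0.179). Its probe set carries the s suffix, and whether Cal-0 sequence binds these Columbia-designed probes less well was not tested.

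cox1 encodes the catalytic core subunit of cytochrome c oxidase, the last complex of the respiratory chain. Its signals were 148, 123, 168 and 210 in Cal-0 replicates 1 to 4, against 71.9, 73.8, 74.7 and 135 in Col-4. Of the Col-4 arrays 3 were nearly equal and low, and only replicate 4 reached into the Cal-0 range. The mean was 162 ± 37.1 over the Cal-0 arrays and 88.8 ± 30.7 over the Col-4 arrays (SD, n = 4), which made a log2 difference of 0.78 (SE 0.21, limma adjusted p = 0.0604). A replicate block brought cox1 past the threshold (limma adjusted p = 0.00594), as did leaving out Col-4 replicate 4 (difference 0.97, limma adjusted p = 0.0098) and trend and robust estimation (limma adjusted p = 0.0481). Of the 8 fits that left out 1 array, cox1 passed in that 1 alone, with limma adjusted p up to 0.164. The difference was of like size within arrays 5 to 8 (0.80) and within arrays 1 to 4 (0.76). The other complex IV member, cox2, was under the filter.

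nad9 encodes a subunit of the matrix arm of complex I, the NADH dehydrogenase at the start of the chain. It had signals of 51.2, 60.0, 49.8 and 69.9 in Cal-0, against 29.5, 17.4, 32.7 and 43.8 in Col-4. The accessions did not overlap, although the highest Col-4 array came within a few units of the lowest Cal-0 array. The log2 difference was 0.68 (SE 0.18, limma adjusted p = 0.0629), and 0.94 and 0.42 with pseudocounts of 1 and 50. nad9 passed with the replicate block (limma adjusted p = 0.0245) and without Col-4 replicate 4 (limma adjusted p = 0.0263). That was 1 of the 8 fits that left out 1 array, and the highest limma adjusted p of the 8 was 0.155. The difference was 0.87 within arrays 1 to 4 (limma adjusted p = 0.0757) and 0.48 within arrays 5 to 8 (limma adjusted p = 0.416). Over all members, 3 of 25 passed with the replicate block, beside 8.57% of all tested probe sets, these being AT2G07718, cox1 and nad9. The same 3 passed with the array set as a block, beside 7.22% of all, and AT2G07718 and cox1 with the 3′ to 5′ ratio as a covariate, beside 5.72%. Groups without overlap were found in 2 of the 25 members, beside 10.3% of all tested probe sets.

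The other complex I genes tested had smaller differences, and none passed. nad4, for a proton-pumping subunit of the membrane arm, averaged 251 ± 87.1 over the Cal-0 arrays and 278 ± 233 over the Col-4 arrays (SD, n = 4). nad6, for another membrane subunit, averaged 32.4 ± 16.3 over the Cal-0 arrays and 31.0 ± 9.50 over the Col-4 arrays. The log2 difference of nad6 was 0.005. That of nad4 was 0.12, opposite in sign to the difference of its linear means, with a single Col-4 array at 611. The signs of both turned in some fits. The nad5 probe set that was tested differed by 0.10, and a second nad5 probe set was under the filter. Of the 7 probe sets for nad1, the 3 tested differed by -0.02, -0.10 and -0.25, without passing. The nad1 probe sets under the filter ran both ways. Their means were 32.05, 17.23, 24.25 and 20.88 in Cal-0, against 17.25, 10, 25.4 and 23.93 in Col-4.

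Among the genes of cytochrome c maturation, the pathway that attaches heme to apocytochrome c, 3 of 4 were tested and none passed. ccb382, annotated today as ccmFN1 and part of the heme lyase, had signals of 414, 296, 324 and 272 in Cal-0, against 290, 235, 176 and 278 in Col-4. The ranges overlapped, and the log2 difference of 0.40 did not pass (SE 0.18, limma adjusted p = 0.322). ccb452, now ccmFC of the same lyase, differed by 0.23, and ccb206, now ccmB, a membrane subunit of an ABC transporter, by -0.08. orfX, now mttB and related to the TatC protein translocase, averaged 112 ± 9.64 over the Cal-0 arrays and 100.2 ± 20.4 over the Col-4 arrays (SD, n = 4), and its log2 difference was 0.16.

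**Figure D2:**
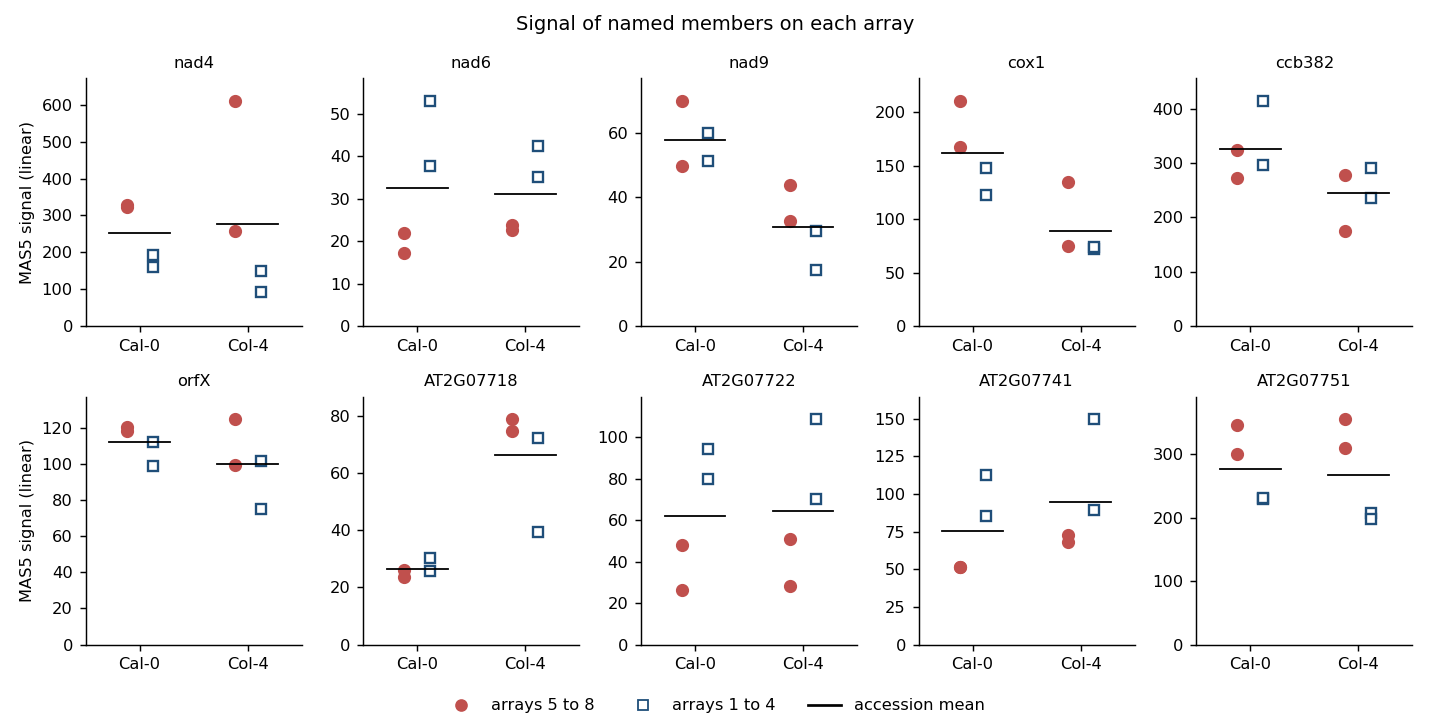
MAS5 signal on a linear scale for the 10 members named by the rule, with Cal-0 left of Col-4 in each panel, 1 point per array and a line at the accession mean (n = 4). AT2G07718 is below 31 on all Cal-0 arrays and above 39 on all Col-4 arrays, while nad4, nad6, AT2G07722, AT2G07741 and AT2G07751 separate arrays 5 to 8 (filled) from arrays 1 to 4 (open) in both accessions.

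Most members differed more between the array sets than between the accessions. In a fit adjusted for accession, nad4 and AT2G07751 were higher on arrays 5 to 8 than on arrays 1 to 4, and nad6, AT2G07741 and AT2G07722 were lower. limma called these 5 of 25 members, beside 8.03% of all tested probe sets, of which 4.04% were called higher and 3.98% lower. The difference between array sets exceeded that between accessions in size in 19 of 25 members (76.0%), against 57.0% of all tested probe sets, 72.5% of those of the plastid genome and 78.6% of those for nuclear respiratory subunits. It was the smaller one in AT2G07718, cox1, nad9, ccb382, AT2G07674 and 1 nad1 probe set. Its median size was 0.35 in the members and 0.20 over all, while the median size of the accession difference was 0.16 in both.

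nad4 had signals of 329 and 322 in Cal-0 and of 259 and 611 in Col-4 on arrays 5 to 8, against 194 and 160 in Cal-0 and 91.9 and 149 in Col-4 on arrays 1 to 4. Arrays 5 to 8 were all above arrays 1 to 4, and Col-4 replicate 4, the array with the highest 3′ to 5′ ratio, stood far above the rest. The log2 difference between the sets was 1.23 (SE 0.26, limma adjusted p = 0.0271), 0.83 within Cal-0 and 1.64 within Col-4. AT2G07751 had signals of 301 and 345 in Cal-0 and 309 and 355 in Col-4 on arrays 5 to 8, against 230 in both Cal-0 arrays and 208 and 198 in Col-4 on arrays 1 to 4. The accessions matched closely within each set, and the set difference was 0.56 (SE 0.11, limma adjusted p = 0.0232).

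Another complex I gene, nad6, ran the other way from nad4. It had signals of 22.0 and 17.1 in Cal-0 and 22.6 and 23.8 in Col-4 on arrays 5 to 8, against 37.6 and 53.0 in Cal-0 and 42.5 and 35.0 in Col-4 on arrays 1 to 4, a log2 difference of -0.63 (SE 0.13, limma adjusted p = 0.0248). All values of arrays 5 to 8 were below those of arrays 1 to 4. The copy locus AT2G07722 was at 26.1 and 47.9 in Cal-0 and 28.4 and 51.0 in Col-4 on arrays 5 to 8, against 94.6 and 79.8 in Cal-0 and 109 and 70.1 in Col-4 on arrays 1 to 4. Its set difference was -0.96 (SE 0.19, limma adjusted p = 0.0206). AT2G07741 was at 51.5 and 51.7 in Cal-0 and 68.2 and 72.5 in Col-4 on arrays 5 to 8, against 113 and 85.1 in Cal-0 and 150 and 89.1 in Col-4 on arrays 1 to 4, a difference of -0.68 (SE 0.16, limma adjusted p = 0.0304). In both loci the sets did not overlap, and both accessions moved the same way.

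The separation extended to members that did not pass. Array sets did not overlap in 9 of 25 members, beside 15.1% of all tested probe sets, the other 4 being AT2G07695, AT2G07724, AT2G07776 and ccb452. Of these, AT2G07776 had signals of 20.6 to 36.8 on arrays 5 to 8 and 40.0 to 57.6 on arrays 1 to 4, and ccb452 69.6 to 87.5 against 38.2 to 65.3. The set difference had the same sign in both accessions in 22 of 25 members (88.0%), against 71.5% of all tested probe sets. Probe sets labelled as copy loci were mostly lower on arrays 5 to 8 (9 of 13, median -0.33), and those labelled mitochondrial ran both ways (7 of 12 higher, median 0.12), where the median over all tested probe sets was -0.05. Of these, 10 of the 13 and 4 of the 12 carried the s suffix, so the contrast is between labels and does not separate the 2 sources of RNA. Without the suffix, all 3 copy loci were lower (median -0.35), and mitochondrial probe sets split 4 higher and 4 lower (median -0.11). Probe sequences were not checked, so these counts too are by label and do not separate the sources.

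With the 3′ to 5′ ratio as a covariate none of the 25 members passed, beside 0.0132% of all tested probe sets. The set differences of nad4 and AT2G07751 were then smaller, at 0.32 and 0.37, while those of nad6 (-0.74), AT2G07741 (-0.83) and AT2G07722 (-1.31) were larger in size. Standard errors rose from 0.132 to 0.215 for nad6, 0.155 to 0.254 for AT2G07741, 0.187 to 0.284 for AT2G07722 and 0.114 to 0.171 for AT2G07751. That of nad4 did not rise (0.264 and 0.256). The ratio was mostly higher on arrays 5 to 8, so this fit cannot separate it from the array set. Leaving out single arrays changed calls more than sizes. No member passed without Cal-0 replicate 2 or without Col-4 replicate 1, where 1.02% and 1.31% of all tested probe sets did. Without Cal-0 replicate 4, 2 members passed, beside 3.17% of all, and 3 passed without Cal-0 replicate 1 (3.67% of all) or without Col-4 replicate 2 (1.94% of all). Over the 8 such fits the difference of nad4 stayed between 0.92 and 1.39, that of AT2G07751 between 0.50 and 0.62, and that of nad6 between -0.70 and -0.53. The corresponding limits were -1.08 and -0.83 for AT2G07722 and -0.83 and -0.57 for AT2G07741, and the highest limma adjusted p of the 5 was 0.0846. The test of whether the accession difference itself changed between the sets called 0 of 15165 probe sets (0%) in limma, with 607 at an unadjusted p under 0.05, 1 of them among the members (ccb206).

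**Figure D3:**
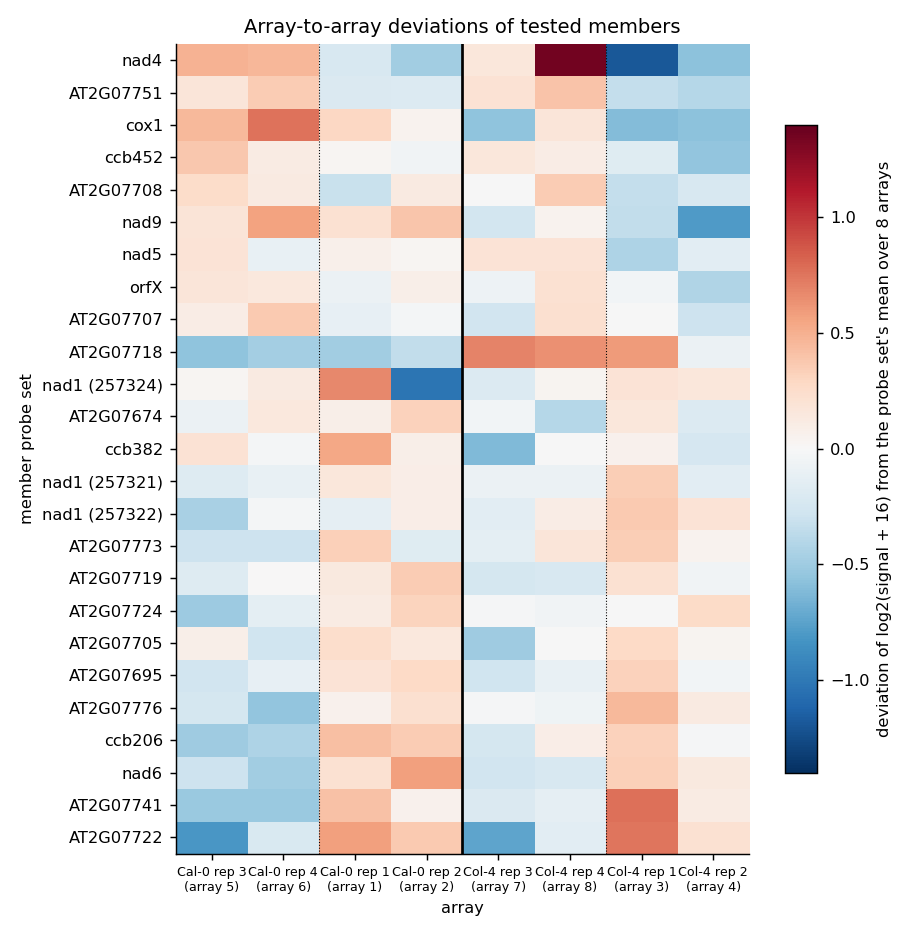
Deviation of log2(signal + 16) from each probe set's mean over the 8 arrays, for the 25 tested members (rows, ordered by the difference between array sets) and the arrays (columns, Cal-0 left of the solid line and Col-4 right of it). Dotted lines part arrays 5 to 8 from arrays 1 to 4 within an accession, and the members at the top and bottom change colour there in both.

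Single arrays differed in where the members stood. The median deviation of the 25 members from their own means was 0.14, 0.10, -0.09 and -0.03 in Cal-0 replicates 1 to 4, and 0.19, -0.08, -0.15 and 0.05 in the Col-4 replicates, while over all tested probe sets it stayed between -0.03 and 0.04. Probe sets labelled mitochondrial and those labelled copy did not always go the same way, with medians of 0.18 and -0.25 on Cal-0 replicate 3 and of 0.01 and 0.28 on Col-4 replicate 1. Col-4 replicate 1 held the highest signal of 8 of the 25 members and the lowest of 4, and Cal-0 replicate 3 the lowest of 8 and the highest of 1. Within accessions the members had a median SD of 0.28 on the log2 scale, against 0.24 over all tested probe sets. nad4 was at 0.85, above 99.6% of tested probe sets, and AT2G07722 at 0.63, above 98.0%. orfX and the steadiest nad1 probe set, at 0.20 each, were below the overall median. Of the variation within accessions, a median of 62.2% in the members lay between the array sets, against 46.6% over all tested probe sets, 51.6% in the plastid genome and 75.4% in the nuclear respiratory subunits.

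**Figure D4:**
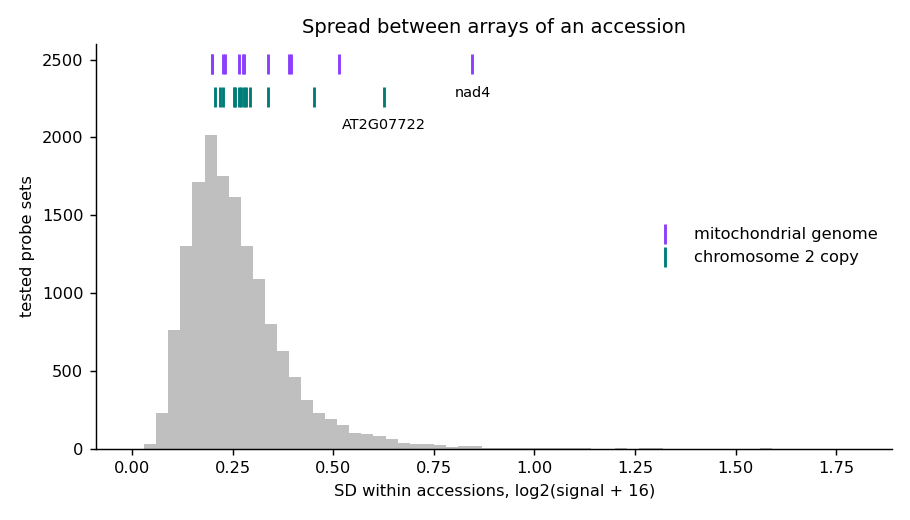
SD of log2(signal + 16) within accessions over all 15165 tested probe sets (grey bars, count per bin), with 1 tick for each tested member. Most members lie within the bulk of the distribution, with nad4 at 0.85 and AT2G07722 at 0.63 in its upper tail.

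Loci next to each other on chromosome 2 did not always move alike. By the order of the annotation, AT2G07707 and AT2G07708 are neighbours, and both were higher on arrays 5 to 8, by 0.22 and 0.37, without passing. AT2G07674 and AT2G07751 are also neighbours, and their set differences were -0.19 and 0.56. AT2G07718 differed by -0.93 between the accessions, while the nearest tested loci on its sides, AT2G07708 and AT2G07719, with 18 and 2 annotated genes between, differed by 0.10 and 0.16.

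Nuclear genes for mitochondrial proteins were called between accessions at about the overall share, 1 of 23 tested probe sets beside 4.29% of all. Of 72 listed genes, 29 had a single-gene probe set, and 23 of their 30 probe sets were tested. NDB2, an alternative NADH dehydrogenase that bypasses complex I, was the one called between accessions, with means of 116 ± 17.6 over the Cal-0 arrays and 71.0 ± 8.64 over the Col-4 arrays (SD, n = 4; log2 difference 0.59, limma adjusted p = 0.0417). That call was lost without any one of 6 arrays, the exceptions being Cal-0 replicate 2 and Col-4 replicate 3, with limma adjusted p of 0.0286 to 0.12 over the 8 fits. It was the called member among 5 tested of the alternative pathway and stress list, whose median difference was 0.24. Between accessions, none of 14 tested probe sets for nuclear respiratory subunits passed (median 0.07), the smallest p belonging to AT5G40810 at 0.31 (limma adjusted p = 0.347). None of 3 tested for RNA polymerases, splicing and editing factors passed either, with AT1G74350 at 0.27, nor did OSB1, of mitochondrial genome maintenance, at -0.26. Between array sets, 2 of the 23 were called, beside 8.03% of all tested probe sets, a share near that of the list. Both were respiratory subunits lower on arrays 5 to 8, AT3G27240 at -0.48 (limma adjusted p = 0.0354) and SDH2-1, of complex II, at -0.54 (limma adjusted p = 0.0295).

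The plastid genome, the other organelle genome on the array, offers a comparison. All 69 of its single-gene probe sets passed the filter, where 25 of the 57 members did. Between accessions 1 of the 69 was called, beside 4.29% of all tested probe sets. It was ndhD, which was lower in Cal-0 (log2 difference -0.87, limma adjusted p = 0.024). Between array sets 11 of 69 were called, 8 higher and 3 lower on arrays 5 to 8, beside 8.03% of all tested probe sets. The median SD within accessions was 0.39. The difference between organelles was not tested.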

How the data were processed

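Per the submitters' processing notes, the authors deposited MAS5 probe set intensity on a linear scale, with no version or settings named there. Array means after trimming 2% at each end were 100.01, so arrays were at a common level, and their number limits the precision. Genes came from the platform annotation, and symbols and gene order from RefSeq TAIR10.1. Differences were fitted in limma 3.58.1 (R 4.3.3) on log2(signal + 16) over the 15165 probe sets averaging 25 or more, two-sided, with Benjamini-Hochberg adjustment over all of them. This scale understates the change of low genes. Accession was the only term, and the array sets were compared in a fit with accession. The step was tested on simulated data.

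Members and lists were chosen with earlier results of these data known. Named members are those called in either comparison and, in each role class, those of highest signal and smallest p; of the lists, up to 4 called members or the smallest p. The labels do not say that replicates come from separate plants, so p-values measure only how far these samples spread, possibly for technical reasons. Deviations of arrays with the same replicate number correlated at 0.278, 0.376, 0.478 and 0.403 for replicates 1 to 4. Unlike numbers correlated at 0.273 and 0.382 among replicates 1 and 2, and at 0.142 and 0.035 among replicates 3 and 4. The numbers thus appear to pair the samples for replicates 3 and 4 only, on the data and not the labels. The replicate block assumes such a pairing for all 4 numbers. Alternatives changed the pseudocount, filter, scaling, variance model, block, covariate, suffix and arrays used. Sequences were not used here.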

Additional observations from a re-analysis of the deposited data

Results flagged for a closer look

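Among 20 groups of 4 arrays, those of the 10 named members in each accession, 2 held an array whose gap to its nearest neighbour took up more of the group's range on the log2(signal + 16) scale than Dixon's 95% critical value allows. Chance gives about 1 such group in 20. cox1 was at 134.8 in Col-4 replicate 4, far above the other Col-4 arrays, and AT2G07718 was at 39.3 in Col-4 replicate 2, far below the other Col-4 arrays.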

How the results depend on the processing

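The count of 651 called probe sets between the accessions was 406 at a mean signal of at least 100, 1299 with the replicate block, 1095 with the array set as a block, 379 within arrays 1 to 4, 319 within arrays 5 to 8, and 412 to 672 without single arrays, the lowest being 412 (Cal-0 replicate 1 left out) and 413 (Col-4 replicate 2 left out). Mitochondrial calls, 0 as reported, were 2 with either block, 1 with trend and robust estimation or the 3′ to 5′ ratio as a covariate, and 0 to 2 without single arrays, the 2 coming without Col-4 replicate 4. The copy locus call was lost (0) at a mean signal of at least 100, within arrays 1 to 4, and among probe sets without suffix, AT2G07718 being left out by the first and the last. The call among nuclear genes (NDB2) was lost (0) with a pseudocount of 1, no filter, a mean signal of at least 100, median centring and within either array set, and was 0 to 1 without single arrays. The 5 calls between array sets became 2 at a mean signal of at least 100 and 0 with the ratio as a covariate, and were 0 to 6 without single arrays. With no filter the count stayed at 5, but nad4 (limma adjusted p = 0.0595) and AT2G07741 (limma adjusted p = 0.0577) no longer passed. Members other than the 5 named were then called in their place. The replicate block changed no other call of a named gene. The mitochondrial median of 0.108 was 0.279 at a mean signal of at least 100 and 0.287 within arrays 1 to 4. It was lower, at 0.012, within arrays 5 to 8 and 0.053 with the ratio as a covariate. Without single arrays it was 0.048 to 0.215. The copy locus median of 0.050 turned sign, to -0.037 within arrays 5 to 8 and -0.020 with the ratio as a covariate. It was -0.053 to 0.047 without single arrays. Accession differences that turned sign, all of uncalled members, were those of nad4 (-0.28 within arrays 5 to 8, -0.33 with the ratio, -0.25 to 0.59 without single arrays), nad6 (-0.02 with a pseudocount of 1, -0.0074 with median centring, -0.14 within arrays 5 to 8, -0.19 to 0.17 without single arrays), AT2G07722 (0.15 with the ratio, -0.29 to 0.22 without single arrays) and AT2G07751 (-0.037 within arrays 5 to 8, -0.11 with the ratio, -0.055 to 0.21 without single arrays). Where no reason is given, the cause was not tested.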
